A study of Rattus norvegicus with 10 samples.

Results

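In the fetal rat cortex, 8 autosomal features, each known here by its Ensembl identifier, stood at a low level, in some cases 0 counts, in some animals and at a several-fold higher level in others. They are 8 of the 26404 features counted, and they were picked from these same counts because the 10 libraries fell into a low and a high level with a wide gap that did not follow treatment. That gap is therefore a description of how they were chosen, and no test of it is given. Each library was made from poly(A) RNA of the right cerebral cortex of 1 fetus, taken on embryonic day 21 from Sprague Dawley rats. In the oxytocin group, the dams had received oxytocin intravenously at 100 mcg per kg 24 h earlier, and in the saline group the dams had received an equal volume of saline. Each group held 5 fetuses, every one from a different dam, so a library is 1 animal. The exposure under study was abnormal uterine contraction, which oxytocin, a peptide hormone of labour, can bring about. The labels used here leave fetal sex unstated.

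Most genes of a tissue vary gradually between animals of one age. A transcript that steps between separate levels from animal to animal is called on-off or bimodal. Sprague Dawley rats are an outbred stock, in which animals carry different combinations of alleles. A counted feature is a set of annotated exons, and a feature with a single exon can be an intronless gene, a pseudogene or a copied transcript. Gene names could be attached to 0 of the 26404 identifiers with the tables used here, so nothing can be said of the products of the 8. For the same reason, the labelled tissue was not checked against marker genes.

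Library totals ran from 18555172 to 30404127 assigned counts. Libraries were compared in pairs over features with at least 20 counts in the pair. The chi-square of their counts divided by its degrees of freedom was 4.08 to 21.6, and no pair matched within sampling noise. Oxytocin replicate 1, the deepest library, lay closer to saline replicate 1 (5.18) and saline replicate 4 (9.40) than to any of the other oxytocin libraries (9.85 to 18.3). Saline replicates 1 and 4 (6.29) were the closest pair of saline libraries. These 3 libraries thus resemble one another across the treatment groups, but the distances do not set them apart from all others. Oxytocin replicate 4 lay at 8.34 to 9.93 from them. The oxytocin libraries other than replicate 1 lay at 4.08 to 6.35 from one another. The likeness of the 3 bears on ENSRNOG00000010547 below. That of oxytocin replicate 1 and saline replicate 1 also bears on ENSRNOG00000007608, which was highest in these libraries.

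The 8 features are short and compact. On the Rnor_5.0 build named in the submitters' processing notes, 4 of them are listed as a single exon: ENSRNOG00000037673 (chromosome 1, 85803624 to 85804087, plus strand, 464 bases), ENSRNOG00000004090 (chromosome 14, 92831927 to 92832988, minus strand, 1062 bases), ENSRNOG00000014510 (chromosome 17, 53764349 to 53765104, minus strand, 756 bases) and ENSRNOG00000029115 (chromosome 7, 59772308 to 59773033, minus strand, 726 bases). The share of single-exon features was 4.16% among the 13897 autosomal features that passed the low-count filter. Among the 2935 of these whose mean CPM (counts per 1e6 assigned counts) lay within the members' range of 1.10 to 7.60, it was 6.95%. The members' count of 4 in 8 rests on few features.

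The other 4 are on the minus strand and have 2 to 4 exon intervals. ENSRNOG00000046116 (chromosome 1, 64183522 to 64184837) has 4 intervals that together cover 89.4% of its span, separated by gaps of 2, 34 and 104 bases. ENSRNOG00000038478 (chromosome 10, 40824107 to 40825361) has 2 intervals with 30 bases between them. Gaps this short are unusual for introns, and the annotation gives no reason for them. ENSRNOG00000007608 (chromosome 4, 50092049 to 50095376) has 4 intervals with gaps of 247 to 416 bases. ENSRNOG00000010547 (chromosome 8, 80317635 to 80320249) has 2 intervals and the longest gap of any member, 948 bases. All 8 spans are under 4 kb, against 14.3% of the autosomal features kept and 22.3% of those in the members' range of level. This limit lies just above the longest member span, 3328 bases, so that all 8 fall under it says little. Without a limit, the median span was 1158.5 bases for the members, against 20348 and 14772 bases. No other feature in the files overlaps the span of a member, so reads were not split with an annotated neighbour. Whether near-identical copies elsewhere in the genome share reads with them was not tested.

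**Figure D1:**
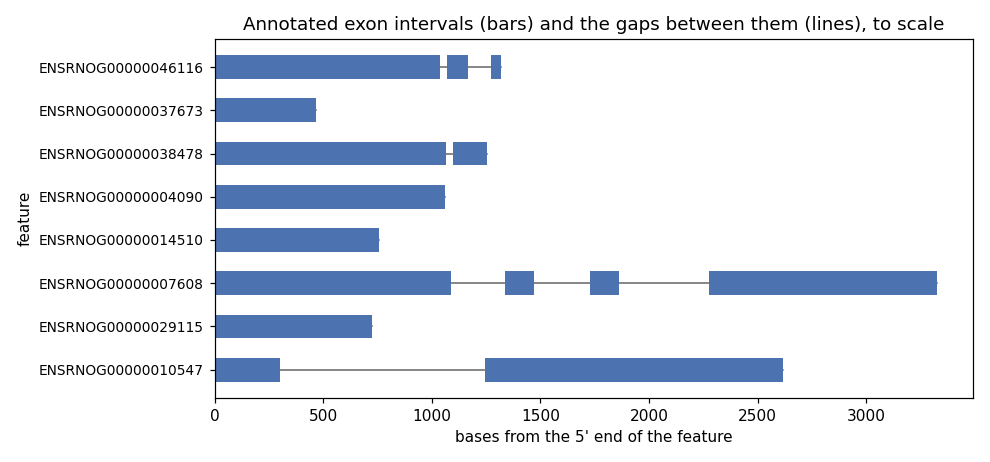
Exon intervals (bars) and the gaps between them (lines) of the 8 features, in bases from the 5' end, drawn to scale. The 4 single-exon features show 1 bar each, the longest gap is 948 bases in ENSRNOG00000010547, and the 2-base gap of ENSRNOG00000046116 is too short to be seen.

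Of the features, 3 were at or close to no counts in their low libraries. ENSRNOG00000029115 had 0 counts in oxytocin replicates 2, 4 and 5 and in saline replicate 4. At the depth of these libraries, a count of 0 allows a level of up to 0.121, 0.153, 0.160 and 0.160 CPM (3 counts of the total, counting error only). In the others it stood at 3.26 CPM in oxytocin replicate 1, 3.24 in oxytocin replicate 3, and 2.84, 3.37, 2.33 and 3.50 CPM in saline replicates 1, 2, 3 and 5. The 6 expressing libraries held 46 to 99 counts each and differed by at most 1.503-fold among themselves. The lowest of them was at least 14.5-fold higher than the 3-count limit of each silent library. In bulk tissue, fewer cells with a transcript and less of it per cell cannot be told apart, here and for the features below.

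ENSRNOG00000014510 had 0 counts in oxytocin replicate 3 and saline replicates 1 and 2, and 1 count in saline replicate 4 (0.053 CPM, exact Clopper-Pearson 95% interval 0.0014 to 0.298). It reached 1.51, 1.49, 2.75 and 2.40 CPM in oxytocin replicates 1, 2, 4 and 5, and 1.47 and 1.35 CPM in saline replicates 3 and 5. Oxytocin replicates 4 and 5 were the highest, on 54 and 45 counts. Whether they mark a separate level among the expressing libraries was not tested.

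ENSRNOG00000037673 had 2, 5 and 2 counts in oxytocin replicates 1, 2 and 4, and 3 and 0 counts in saline replicates 4 and 5. These 5 libraries stood at 0 to 0.201 CPM. The other 5 stood at 5.31 and 8.97 CPM in oxytocin replicates 3 and 5, and at 3.91, 4.72 and 6.33 CPM in saline replicates 1, 2 and 3. The libraries were parted evenly, 5 against 5, and the 2 nearest across the gap differed by 19.4-fold. This feature is the shortest of the 8, and per kilobase of exon its expressing libraries, at 8.43 to 19.3 RPKM, stood above those of most other members. The highest RPKM of the others was 10.9, in ENSRNOG00000038478.

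The remaining features had at least 1 count in every library. ENSRNOG00000004090 was low in 6 libraries, at 0.658, 0.720 and 1.12 CPM in oxytocin replicates 1, 3 and 4 and at 0.660, 0.802 and 0.808 CPM in saline replicates 1, 4 and 5, on 13 to 22 counts each. It was high in oxytocin replicates 2 and 5, at 7.36 and 8.76 CPM, and in saline replicates 2 and 3, at 9.48 and 7.45 CPM. The 4 high libraries spanned 1.29-fold, and the nearest low and high libraries were 6.57-fold apart.

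ENSRNOG00000038478 was low in oxytocin replicates 3 and 4, at 0.540 and 0.967 CPM, and in saline replicate 5, at 0.431 CPM. Its high libraries were unevenly spread. Saline replicates 1 and 3 stood at 6.75 and 6.79 CPM, with intervals of 5.66 to 8.01 and 5.69 to 8.04. Oxytocin replicates 1, 2 and 5 and saline replicates 2 and 4 stood at 10.9, 11.9, 13.4, 12.7 and 11.8 CPM, and the lowest interval bound among them was 9.71. Counting error alone does not span that step, but the intervals hold no variation between animals, so whether it marks a separate level was not tested.

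ENSRNOG00000007608 was low in oxytocin replicate 2, at 0.684 CPM, and saline replicate 3, at 0.456 CPM. In 6 libraries it stood between 4.27 CPM (oxytocin replicate 5) and 7.65 CPM (saline replicate 4). In oxytocin replicate 1 and saline replicate 1 it stood at 13.9 and 12.8 CPM. The 8 libraries above the gap thus covered a 3.26-fold range, the widest among the 8 features.

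ENSRNOG00000046116 was low in oxytocin replicates 1 and 4, at 0.428 and 0.204 CPM, and in saline replicate 4, at 0.267 CPM. The other 7 libraries ran from 2.96 CPM in saline replicate 5 through 3.29, 3.95, 4.54 and 6.09 CPM to 7.41 CPM in saline replicate 2 and 7.52 CPM in oxytocin replicate 2. They were graded rather than tight, with a 2.54-fold range and a widest step of 0.39 on the log2 scale.

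ENSRNOG00000010547 was high in 3 libraries, oxytocin replicate 1 at 7.70 CPM and saline replicates 1 and 4 at 6.35 and 7.54 CPM. In the other 7 it stood at 0.282, 0.630, 0.509 and 0.214 CPM in oxytocin replicates 2, 3, 4 and 5, and at 0.385, 0.051 and 0.270 CPM in saline replicates 2, 3 and 5. The high libraries agreed within 1.21-fold, and the low ones held 1 to 14 counts. In the comparison of libraries in pairs, these 3 high libraries lay at 5.18, 6.29 and 9.40 from one another. Oxytocin replicate 4, low for this feature, lay at 8.34 to 9.93 from them.

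**Figure D2:**
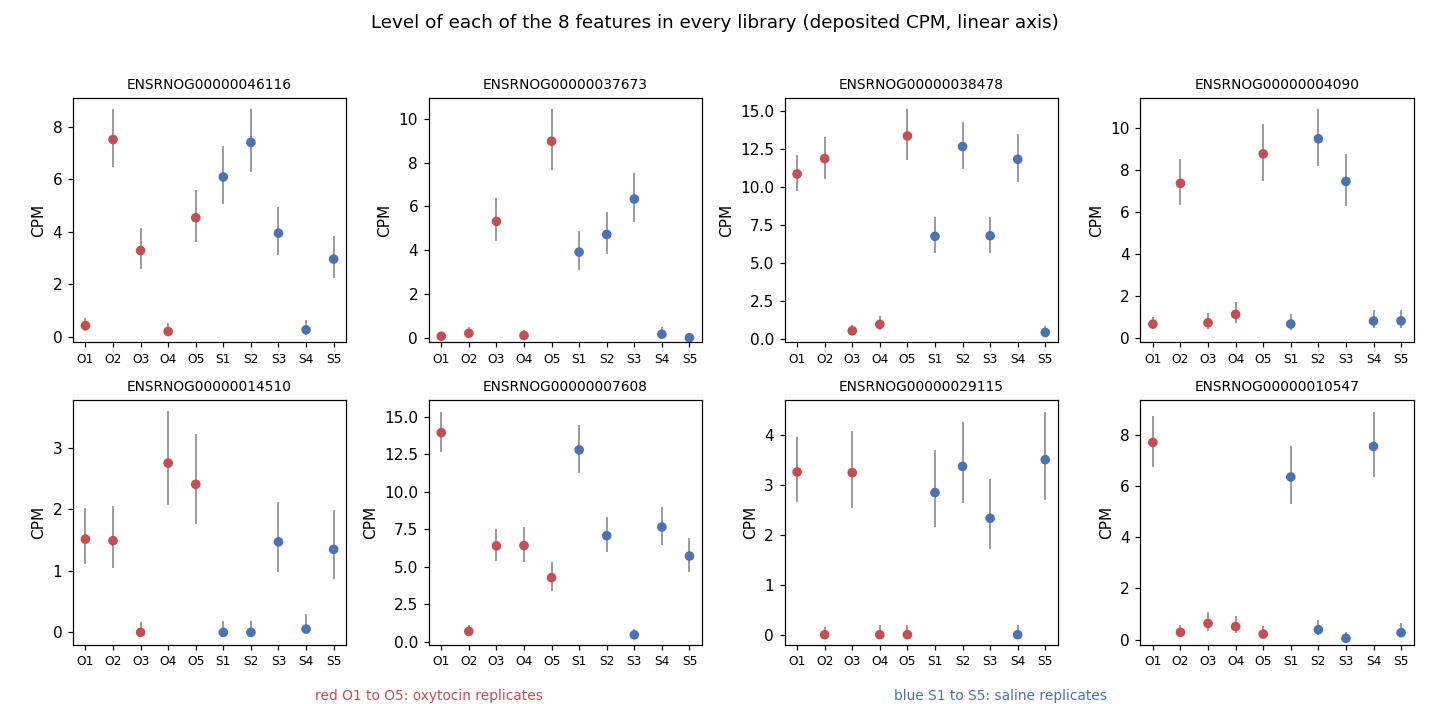
Level of each feature in every library, in deposited CPM on a linear axis, with exact 95% intervals of the counts as bars; red points are the oxytocin libraries and blue points the saline libraries. ENSRNOG00000029115 is at 0 in 4 libraries and between 2.33 and 3.50 CPM in 6, and ENSRNOG00000038478 stands at 6.75 and 6.79 CPM in 2 saline libraries, below its other high libraries.

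The high and low libraries of every feature came from both treatment groups. High libraries numbered 3 with oxytocin and 4 with saline for ENSRNOG00000046116 and ENSRNOG00000038478, 2 and 3 for ENSRNOG00000037673, 2 and 2 for ENSRNOG00000004090, 4 and 4 for ENSRNOG00000007608, and 1 and 2 for ENSRNOG00000010547. The split was least even for ENSRNOG00000014510, with 4 and 2, and ENSRNOG00000029115, with 2 and 4. Fitted with edgeR over all 14400 features that passed the low-count filter, the log2 fold change of oxytocin over saline was 1.52 ± 0.88 (SE) for ENSRNOG00000014510, at 1.63 ± 1.07 against 0.574 ± 0.763 CPM (SD, n = 5 each). For ENSRNOG00000029115 it was -0.79 ± 0.93 (SE), at 1.2995 ± 1.78 against 2.41 ± 1.42 CPM (SD, n = 5 each). The other 6 lay between -0.51 and 0.0019. Single libraries moved these values. The fold change of ENSRNOG00000010547, -0.51 with all libraries, was -2.79 without oxytocin replicate 1 and 0.21 without saline replicate 4. That of ENSRNOG00000029115 ran from -1.51 without oxytocin replicate 1 to -0.47 without oxytocin replicate 2. Groups overlapped for all 8 members, while 0.896% of the features kept had groups without overlap, and 0% were called by the quasi-likelihood test of edgeR at a Benjamini-Hochberg threshold of 0.05 (514 had an unadjusted p under 0.05). DESeq2 called 10 features, none of them a member. Because the members were picked as unrelated to treatment, these values describe them and test nothing.

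The patterns of the 8 features were all different. For each of the 28 pairs, the libraries placed on the same side by both features were counted, with either feature allowed to be turned over. Of the 10 libraries, the agreement was 5 in 8 pairs, 6 in 9, 7 in 8 and 8 in 3, where 5 is the least that this measure can give. The closest were ENSRNOG00000046116 with ENSRNOG00000037673, low together in 3 libraries, and 2 pairs that ran in opposite directions: ENSRNOG00000046116 with ENSRNOG00000010547, and ENSRNOG00000004090 with ENSRNOG00000007608. The 2 features on chromosome 1 lie over 20 Mb apart by their listed positions.

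No library was low for all features or for none. The number of features low in a library ran from 2, in oxytocin replicate 5 and saline replicates 1, 2 and 3, to 5 in saline replicate 4 and 6 in oxytocin replicate 4. Depth did not order them: oxytocin replicate 1, with the most counts, was low for 3 features, and saline replicate 5, with the fewest, for 4.

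One feature, ENSRNOG00000046116, mirrored a feature of chromosome X. ENSRNOG00000037911 (chromosome X, 75109508 to 75146839, 10 exon intervals) had 829 counts in oxytocin replicate 1, 606 in oxytocin replicate 4 and 697 in saline replicate 4, and 1 to 4 counts in each of the other 7 libraries. It was singled out after its values were seen, and the low-count filter drops it. The libraries in which it was high are the 3 in which ENSRNOG00000046116 was low, so the sides were opposite in 10 of 10 libraries. Against the same chromosome X feature, the other 7 members had 2 to 8 libraries on opposite sides, with 8 for ENSRNOG00000037673. Females and males carry different numbers of chromosome X, and the part of fetal sex in this pattern was not tested. The files list 0 features on chromosome Y, so reads from that chromosome have no feature of their own, and whether any were counted at ENSRNOG00000046116 was not tested.

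Of the features kept, 22 others parted the libraries by their own widest gap as ENSRNOG00000046116 did, 10 in the same direction and 12 in the opposite one. Chromosome X held 3 of the 22 (13.6%), against 3.26% of all features kept. These 3, ENSRNOG00000006186, ENSRNOG00000002662 and ENSRNOG00000003426, were higher where ENSRNOG00000046116 was low. ENSRNOG00000006186 (chromosome X, 63800221 to 63884009) stood at 186, 198 and 184 CPM in those libraries and at 121 to 146 CPM in the others. Their steps were small, with gaps of 0.34, 0.21 and 0.11 on the log2 scale. Without oxytocin replicate 1 the count was 93, 1 of them with a gap of at least 1. A match over fewer libraries is easier to meet, so 93 and 22 are not like for like. The chromosome X share was not computed for the 93.

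**Figure D3:**
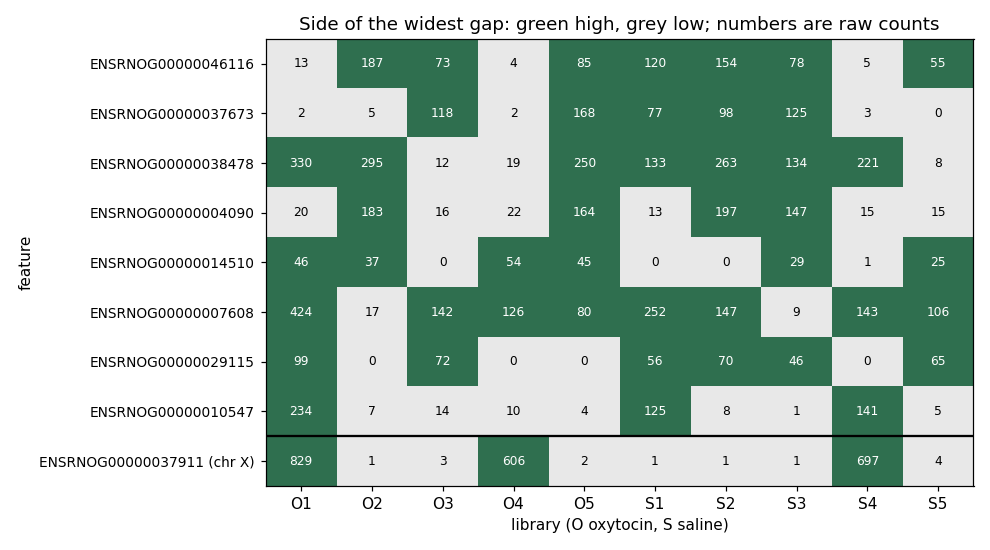
Side of the widest gap for the 8 features and for ENSRNOG00000037911 on chromosome X (bottom row), with the raw count in each cell; O1 to O5 are oxytocin and S1 to S5 saline replicates. No 2 members have the same row, and the top and bottom rows are opposite in all 10 libraries.

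The number of other features that shared a pattern differed widely between members, though patterns of unequal size are not met equally often. The pattern of ENSRNOG00000010547 was shared by 417 other features kept, 327 of them high in the same 3 libraries. Chromosome X held 26 of the 417 (6.24%), also above its 3.26% share of the features kept. Its share was below 3.26% for the members other than this one and ENSRNOG00000046116, at 1.56% for ENSRNOG00000007608 and 0% for the rest. The pattern of ENSRNOG00000010547 was the most frequent of the 120 ways seen of setting 3 libraries against 7. Of the 417 features, 9 had a gap of at least 1 on the log2 scale, all were high in the same libraries, and they lay on 5 chromosomes. Their summed level was 56.9 CPM in oxytocin replicate 1, 49.8 in saline replicate 1 and 96.8 in saline replicate 4, and from 8.23 to 16.1 CPM in the other 7 libraries. That the sum steps between these libraries follows from how the 9 were selected. The widest gap was that of ENSRNOG00000012478 (chromosome 2, 183469829 to 183478421), at 2.05, which ran from 113 to 376 counts in the 3 libraries and from 1 to 29 in the others. Without the low-count filter, 19 features on 10 chromosomes shared the pattern with such a gap. The identity of these features, and with it any cell type or region they mark, was not tested. Because oxytocin replicate 1 stood apart in depth, it was also left out, and 568 features then shared the pattern over 9 libraries, 12 with a gap of at least 1.

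ENSRNOG00000007608 also had followers. The same 2 libraries were set apart by 128 other features kept, and 2 of these had a gap of at least 1, both low in the same libraries. ENSRNOG00000037600 (chromosome 20, 57195047 to 57274557) had 4 and 5 counts in oxytocin replicate 2 and saline replicate 3, and 21 to 203 in the others. ENSRNOG00000010560 (chromosome 2, 43712391 to 43722342) had 7 and 2 counts there, and 19 to 293 in the others. Beyond the shared low libraries, both followers were highest in oxytocin replicate 1, with saline replicate 1 next, which are also the highest libraries of ENSRNOG00000007608. Their summed level was 16.3 and 11.8 CPM in these libraries, at most 6.52 CPM in the other 6 above the gap, and 0.442 and 0.355 CPM in the low ones. The step down to the low libraries follows from how the followers were selected.

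**Figure D4:**
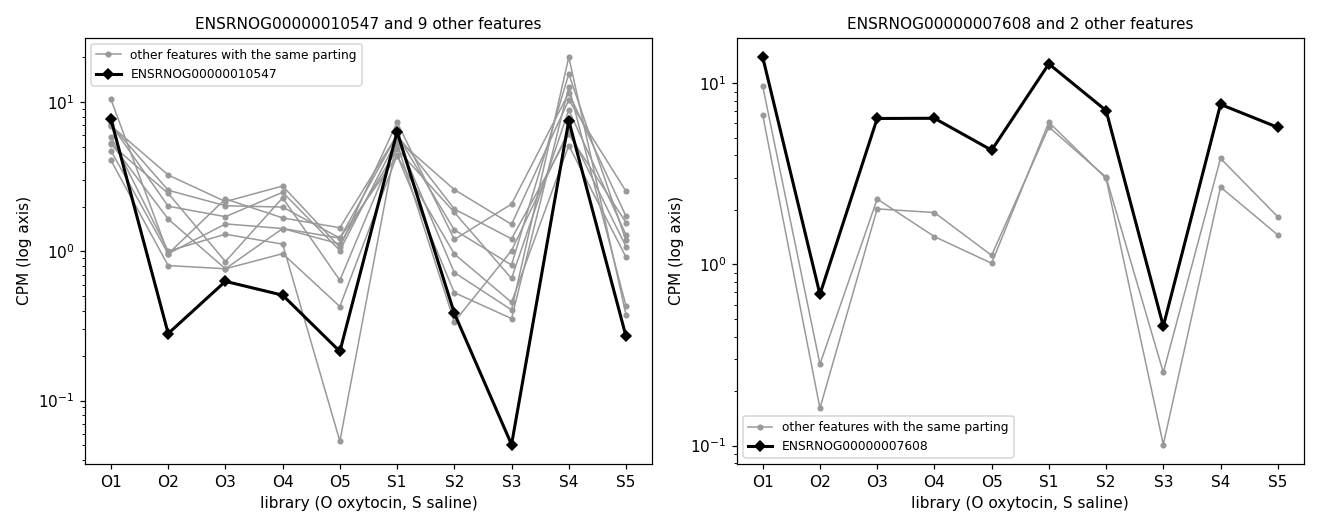
Level by library, in CPM on a log axis, of ENSRNOG00000010547 with the 9 features that share its pattern with a gap of at least 1 log2 unit (left) and of ENSRNOG00000007608 with 2 such features (right); black lines are the members and grey lines the other features. All lines on the left peak in O1, S1 and S4, and those on the right dip in O2 and S3, because the grey features were selected for these partings.

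For the other 5 features, ENSRNOG00000037673, ENSRNOG00000038478, ENSRNOG00000004090, ENSRNOG00000014510 and ENSRNOG00000029115, the pattern was shared by 5, 11, 18, 1 and 3 other features kept. None of these had a gap of 1 log2 unit, with the low-count filter or without it. The widest gaps among the features that parted the same libraries were 0.24, 0.31, 0.26, 0.055 and 0.14. Without oxytocin replicate 1, and so over fewer libraries, the counts were 10 for ENSRNOG00000037673 and 12 for ENSRNOG00000014510. With counts thinned to the smallest library, that of ENSRNOG00000037673 was 2. In these 5 cases no other feature with at least 10 counts in all showed that pattern with a gap of 1 or more. Patterns were also ranked by frequency among those seen with as many libraries on the smaller side. These 5 stood 23 of 114, 48 of 120, 11 of 202, 150 of 202 and 106 of 202. That of ENSRNOG00000007608 stood 6 of 45, and that of ENSRNOG00000046116 22 of 120.

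Features near the members were examined for the same partings. Within 1 Mb of the 8 features the files list 172 other features, of which 102 passed the low-count filter. The widest gap of a neighbour parted the same libraries as its member in 0 of 102 cases. Farther away on the autosomes, the share of features that did so was 0.137% for ENSRNOG00000046116, 0.0361% for ENSRNOG00000037673, 0.0792% for ENSRNOG00000038478 and 0.13% for ENSRNOG00000004090. It was 0.0072% for ENSRNOG00000014510, 0.907% for ENSRNOG00000007608, 0.0216% for ENSRNOG00000029115 and 2.81% for ENSRNOG00000010547. At such shares, a count of 0 among 2 to 47 neighbours is near the background. In a window of 2 Mb there were 2 such features, both near ENSRNOG00000010547, and the closer, ENSRNOG00000008095, lay 1064675 bases away with a gap of 1.34.

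The neighbours' own gaps were also near the background. All but 1 of the 102 neighbours had a widest gap of at most 0.51 on the log2 scale, and the median over all autosomal features kept was 0.13. The exception was ENSRNOG00000005316 (chromosome 7, 59647425 to 59648698), 123610 bases from ENSRNOG00000029115, with a gap of 1.19 on 2 to 19 counts. Its lowest library was saline replicate 5, in which ENSRNOG00000029115 was high. A gap of at least 1 was found in 0.835% of autosomal features kept and in 1 of the 102 neighbours.

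None of the nearest tested features parted the libraries by its widest gap as its member did. ENSRNOG00000018885 (chromosome 1, 85810963 to 85824370), 6876 bases from ENSRNOG00000037673, stood at 6.005 to 7.56 CPM in the libraries where that member was low and at 6.84 to 8.23 CPM where it was high. ENSRNOG00000046056 (chromosome 1, 64190273 to 64200165), 5436 bases from ENSRNOG00000046116, ran from 1.41 to 2.46 CPM and from 1.60 to 2.59 CPM in the same way. ENSRNOG00000007636 (chromosome 4, 50109970 to 50640382), 14594 bases from ENSRNOG00000007608, ran from 26.9 to 29.4 CPM and from 26.5 to 32.5 CPM. In each case the ranges overlapped. At least 1 other listed feature lies closer to ENSRNOG00000037673 than ENSRNOG00000018885 does, but it did not pass the low-count filter.

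On the other side of ENSRNOG00000037673, ENSRNOG00000046338 lay 29530 bases away and spanned 1.35-fold over all libraries. On the other sides of ENSRNOG00000046116 and ENSRNOG00000007608, the nearest tested features were ENSRNOG00000048261 (50 to 91 counts) and ENSRNOG00000039494 (21 to 53 counts), which spanned 1.54-fold and 2.12-fold. For the other 5 features the nearest tested neighbours were 123610 bases or more away, at ENSRNOG00000029115, and up to 539238 bases away, at ENSRNOG00000004090. These neighbours spanned 1.16-fold to 1.40-fold over the 10 libraries, apart from ENSRNOG00000005316, which spanned 8.93-fold on 2 to 19 counts. ENSRNOG00000013186, nearest to ENSRNOG00000038478 at 145650 bases, spanned 1.17-fold on at least 3884 counts.

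A looser criterion, added after the data were seen, asked only that a neighbour's values not overlap between the libraries where the member was low and those where it was high, whatever the size of the step. It was met by 3 of 102 neighbours. The autosomal share farther away was 2.43% for ENSRNOG00000046116, 0.491% for ENSRNOG00000037673, 1.2% for ENSRNOG00000038478 and 2.71% for ENSRNOG00000004090. It was 0.511% for ENSRNOG00000014510, 8% for ENSRNOG00000007608, 0.548% for ENSRNOG00000029115 and 11.2% for ENSRNOG00000010547. All 3 neighbours ran opposite to their member and at a far smaller scale. The largest step was at ENSRNOG00000010668 (chromosome 10, 40092956 to 40129924), 694183 bases from ENSRNOG00000038478, with 93.7 to 98.1 CPM in the 3 libraries where that member was low and 48.2 to 81.8 CPM in the other 7. For ENSRNOG00000004290, near ENSRNOG00000004090, the ranges were 89.9 to 107 and 76.7 to 88.3 CPM. For ENSRNOG00000010362, near ENSRNOG00000010547, the nearest libraries stood at 5.229 (oxytocin replicate 2) and 5.227 (saline replicate 4) in log2 CPM with TMM scaling. In the deposited CPM its ranges overlapped, at 37.0 to 45.8 and 33.2 to 37.4 CPM.

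**Figure D5:**
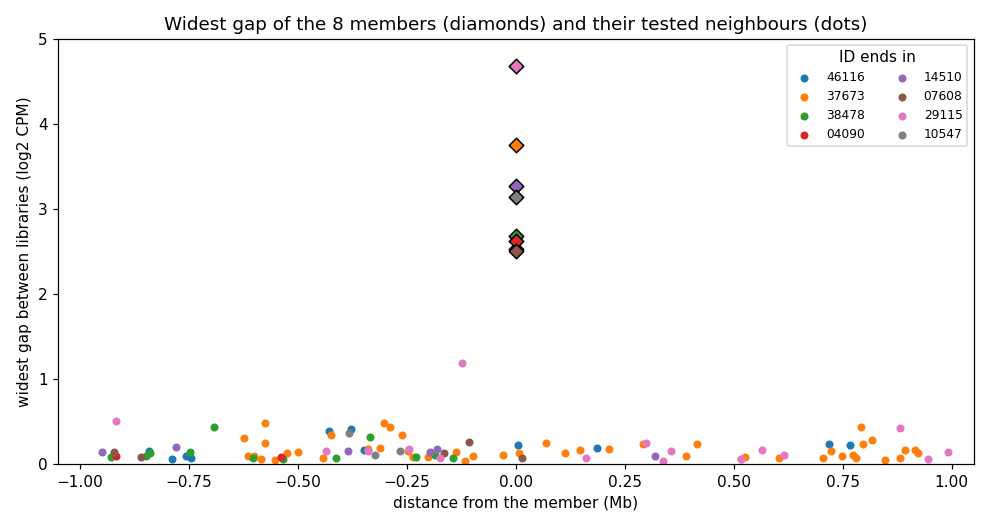
Widest gap between neighbouring libraries, in log2 CPM, for the 8 features (diamonds at distance 0) and for the 102 tested features within 1 Mb of them (dots, coloured by member). The diamonds lie between 2.50 and 4.68, and 1 dot exceeds 1, at 1.19.

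The members are not the only autosomal features with gaps this wide. Widest gaps at or above the narrowest member's 2.50 on the log2 scale were found in 13 autosomal features kept, or 0.0935%, and 8 of these are the members. Just inside this limit stand ENSRNOG00000007608 at 2.50 and ENSRNOG00000046116 at 2.53. In 4 of the other 5 a single library stood alone. ENSRNOG00000029367 (chromosome 5, 88665584 to 88667982) had 4 counts in oxytocin replicate 5 and 130 to 351 in the other libraries, a gap of 4.50. ENSRNOG00000046170 (chromosome 1, 13504948 to 13508160) had 38 counts in saline replicate 3 and 656 to 1834 elsewhere, a gap of 4.05. The fifth, ENSRNOG00000017286 (chromosome 15, 48799895 to 48836847), was low in saline replicates 2 and 4, with 6 and 1 counts against 52 to 144. It has 19 exon intervals, and its gap was 2.70.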

How the data were processed

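Polyadenylated RNA of 10 fetal cortices was sequenced, per the labels' protocols. The submitters' processing notes name bcl2fastq, STAR 2.0.4b, featureCounts 1.45 of Subread and the Rnor_5.0 build; handling of strand and of reads with several matches is not given in the sources used here. The deposited count column holds whole reads per feature without normalization. The deposited CPM equals the count per 1e6 of each library's total (largest deviation 4.18e-11), and the deposited RPKM equals that CPM per kilobase of listed exon length.

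The 8 features and all lists were chosen with earlier results of these data known. edgeR 4.0.16 (R 4.3.3) filterByExpr kept 14400 features, all 8 members among them. It keeps features counted in about 5 libraries, so features high in fewer can be lost. Levels for partings were log2 CPM with TMM factors (0.983 to 1.02) and a prior count of 2. The 10 values of a feature were sorted, and the widest gap between neighbours parted the libraries; no mean or test was taken over these sets. Neighbours were features kept within 1 Mb of a member's span. Treatment was fitted by edgeR's quasi-likelihood test with Benjamini-Hochberg adjustment; DESeq2 1.42.0 was an alternative. The fit and the parting were tried on simulated data. Exact binomial 95% intervals cover counting error only.

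By rule the text could name each member's nearest tested neighbours, those with the same parting, the 3 features most like it, the chromosome X features with the widest gaps and the 5 autosomal features just outside; some are given by counts only. No identifier could be paired with the promoter or gene tables, so no sequence is shown and the planned cell type markers were not analysed here.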

Additional observations from a re-analysis of the deposited data

Results flagged for a closer look

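In groups of 5, a library whose distance from the nearest other exceeds 0.71 of the group's range stands apart by Dixon's 95% criterion. The features were picked for a wide gap in these same values, so such cases follow from the choice and test nothing, and the rate of about 1 in 20 groups that chance gives does not apply. They arose in 5 of 16 groups. In log2 CPM, the lowest of their group were ENSRNOG00000038478 in saline replicate 5 (-0.95), ENSRNOG00000014510 in oxytocin replicate 3 (-3.41), ENSRNOG00000007608 in saline replicate 3 (-0.87) and ENSRNOG00000029115 in saline replicate 4 (-3.41). The highest of its group was ENSRNOG00000010547 in oxytocin replicate 1 (2.97). In each, 1 library of a group lay on the other side of the gap from the other 4.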

How the results depend on the processing

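The parting of the libraries by each of the 8 features was the same in 120 of 120 recomputations. Of these, 80 left out 1 library. Leaving out a library cannot narrow the gap of a feature picked for a wide one, so those 80 were nearly fixed beforehand. The rest used prior counts of 0.5 and 5, library size alone, DESeq2 size factors or counts thinned to the smallest total. The size of the gap depends on the prior count where low libraries are near 0, and for ENSRNOG00000029115 it ran from 3.44 to 6.64. Neighbours with the same parting numbered 2 in a window of 2 Mb, both of ENSRNOG00000010547, and 0 at 500 kb, with library size alone and with all features of at least 10 counts. With library size alone, 2 in place of 3 neighbours ordered the libraries as their member did; this number was 1 at 500 kb and 6 at 2 Mb. DESeq2 called 10 features between oxytocin and saline, none a member, after its filtering left 2497 features in the adjustment; edgeR called 0 under the other alternatives, with 420 to 841 features at an unadjusted p under 0.05. Without oxytocin replicate 1, features with the pattern of ENSRNOG00000046116 rose from 22 to 93, those with the pattern of ENSRNOG00000037673 from 5 to 10 and those with the pattern of ENSRNOG00000014510 from 1 to 12, over fewer libraries. For ENSRNOG00000037673 the count was 3 with library size alone and 2 with thinned counts, and for ENSRNOG00000014510 it was 2 with thinned counts. Without 1 library, the fold change of oxytocin over saline ran on the log2 scale from -1.12 to 0.37 for ENSRNOG00000037673, -0.62 to 0.61 for ENSRNOG00000004090, -0.60 to 0.33 for ENSRNOG00000007608, -0.30 to 0.30 for ENSRNOG00000038478, -0.99 to -0.04 for ENSRNOG00000046116 and 1.18 to 2.26 for ENSRNOG00000014510. Depth limits ENSRNOG00000014510 most, whose high libraries hold 25 to 54 counts. No paired analysis was possible because replicate numbers follow accession order only.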

Other observations

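Chromosome X also held features that stepped between libraries. Among those that passed the low-count filter, the widest gap was at ENSRNOG00000048990 (chromosome X, 20149054 to 20153461, 3 exon intervals), with 28 to 38 counts in oxytocin replicates 2 to 5 and saline replicates 4 and 5 and 1 to 3 counts in the other 4 libraries. Its pattern matched no autosomal member, and the closest, ENSRNOG00000029115, lay on the opposite side in 8 of 10 libraries. The next, ENSRNOG00000046790 (chromosome X, 111467812 to 111471475), had 465 counts in oxytocin replicate 1 and 247 in saline replicate 1 against 20 to 92 in the others, and shared its side with ENSRNOG00000010547 in 9 of 10 libraries.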
